A study of Mus musculus with 6 samples.

Results

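The NF-kB transcription factors and the proteins that hold them in check were examined in regulatory T cells (Tregs) sorted from mouse melanomas. Rows of the expression table were taken by gene symbol: the 5 subunits *Nfkb1*, *Nfkb2*, *Rel*, *Rela* and *Relb*, the IkB proteins *Nfkbia*, *Nfkbib*, *Nfkbie* and *Nfkbiz*, and *Tnfaip3*, which encodes A20. All 10 genes were present among the 12153 genes of the table. The 6 libraries were RNA-Seq of Tregs from B16.F10 tumors, a melanoma cell line implanted in mice, taken at day 15. The labels give 3 control samples from Nr3c1-flox mice and 3 samples from Nr3c1-flox mice that also carry Foxp3-YFP/Cre (*Nr3c1* Foxp3-Cre), so both groups share the floxed *Nr3c1* gene, which encodes the glucocorticoid receptor (GR). Cre is driven by *Foxp3*, so deletion is directed to cells that have expressed that gene. The labels describe a sort on CD45, CD4 and CD25 and name the cells CD4+CD25+ Tregs, whereas the study's methods describe a sort on Foxp3-YFP, an allele that the control labels do not name. Neither gives the ages of the mice, and the labels do not say that each library came from a separate animal, so p-values measure only the spread between these samples.

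NF-kB proteins are dimers of subunits that wait in the cytoplasm bound to IkB proteins. In the canonical pathway the IkB kinase (IKK) complex marks IkB-alpha for degradation, and dimers of RelA or c-Rel with p50 enter the nucleus. In the noncanonical pathway the p100 precursor encoded by *Nfkb2* is processed to p52, which pairs with RelB. Several inhibitors, IkB-alpha and A20 among them, are themselves NF-kB targets and close a negative feedback loop. In Tregs, c-Rel and RelA are known to be needed for the development and the effector state of the lineage. Glucocorticoids are textbook repressors of NF-kB activity, and raised *Nfkbia* expression is one of the routes described, so the comparison asks whether these transcripts differ in Tregs in which GR is targeted.

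Because inhibitors of the loop are regulated through sites near their start, the stretch of 150 bases before an annotated start is shown for 4 of the 5 members that hold a match to the kB consensus, the 10-base site that NF-kB dimers bind. The other, *Nfkb2*, has more than 1 annotated start, and the stretch of it that holds matches lies wholly in annotated exons and is not shown. Capitals mark the matches on either strand, and overlapping matches run together. The sequences are from RefSeq on GRCm38.p6, 5′ to 3′ along the strand of the gene.
Nfkbia chr12:55492648-55492797 (minus strand): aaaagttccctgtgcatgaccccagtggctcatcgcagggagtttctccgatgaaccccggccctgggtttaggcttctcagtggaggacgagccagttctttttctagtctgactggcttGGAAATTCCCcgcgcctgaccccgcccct
Tnfaip3 chr10:19015411-19015560 (minus strand): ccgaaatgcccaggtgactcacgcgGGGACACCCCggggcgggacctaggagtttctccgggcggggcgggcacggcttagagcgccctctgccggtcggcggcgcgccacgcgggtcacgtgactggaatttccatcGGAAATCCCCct
Rel chr11:23770970-23771119 (minus strand): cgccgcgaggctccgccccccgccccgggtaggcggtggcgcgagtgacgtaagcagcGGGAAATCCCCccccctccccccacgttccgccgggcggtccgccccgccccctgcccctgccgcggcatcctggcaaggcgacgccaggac
Nfkbie chr17:45555550-45555699 (plus strand): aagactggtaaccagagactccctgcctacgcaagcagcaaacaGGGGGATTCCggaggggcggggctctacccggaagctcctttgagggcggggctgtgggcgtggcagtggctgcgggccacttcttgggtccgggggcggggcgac
By the GENCODE M21 annotation the *Nfkbia* and *Nfkbie* stretches lie upstream of the gene and touch 0 exon bases. The *Rel* stretch touches 1 exon base. The *Tnfaip3* stretch lies inside the gene, because another transcript starts farther upstream, and 13 of its bases are in the untranslated first exon of that transcript while the others are intronic. RefSeq promoters, from 250 bases before to 50 after a start, were matched by symbol for 7 of the 10 members and gave 10 promoters. Of these, 7 promoters of 5 members (*Nfkb2*, *Rel*, *Nfkbia*, *Nfkbie* and *Tnfaip3*) held a kB match, and 2 of the *Nfkb2* promoters overlap and share one. Over all 32851 promoters of the table the share with a match was 8.46%. In *Nfkbia* the match began 29 bases before the start, and in *Tnfaip3* matches began 125 and 12 bases before it. In *Rel* 2 overlapping matches began 92 and 91 bases before the start, and in *Nfkbie* the match began 106 bases before it. The core of the glucocorticoid response element, searched as ACANNNTGT on both strands, was in 0 of the 10 member promoters and in 6.85% of all promoters. These windows hold or lack these letters, and binding was not measured.

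The labels were checked first on GR itself. *Nr3c1* had log2 CPM values (CPM is a gene's read count scaled to the library total, here quantile normalized by the authors) of 7.15, 7.59 and 6.88 in control libraries 1 to 3 and 6.14, 5.45 and 5.90 in *Nr3c1* Foxp3-Cre libraries 1 to 3. All 3 Cre libraries were below all 3 controls, and the log2 fold change was -1.38 (SE 0.21, limma adjusted p = 0.120), which misses the 0.05 threshold over all genes. *Tsc22d3*, which encodes the glucocorticoid-induced protein GILZ, had 7.78, 8.31 and 7.69 in controls and 6.45, 6.28 and 6.35 in Cre libraries, and it fell by 1.56 on the log2 scale (SE 0.16, limma adjusted p = 0.034). This call was lost in 6 of 16 alternatives, with limma adjusted p values of 0.221 without a trend, 0.137 with a replicate block, 0.071 without control library 3, and 0.064, 0.140 and 0.154 without Cre libraries 1, 2 and 3, although the groups did not overlap. The other glucocorticoid-responsive genes differed in their values. *Dusp1*, a phosphatase of MAP kinases, was 0.56 lower (log2 fold change -0.56, limma adjusted p = 0.652) without overlap between groups, whereas *Fkbp5*, a GR co-chaperone, had -0.16 and *Zfp36*, an mRNA decay factor, had 0.34, each with overlapping groups. In bulk libraries such as these, fewer cells of a type and less RNA per cell cannot be told apart. Of 8 T cell and Treg markers, 8 were measured. *Foxp3* was the lowest of them, between 3.39 and 4.42 log2 CPM in controls and between 3.50 and 4.47 in Cre libraries. The others were higher, with group means from 7.04 (*Ikzf2*) to 10.12 (*Trac*) in controls and from 7.31 (*Ikzf2*) to 10.06 (*Trac*) in Cre libraries. B16 melanoma markers were present in every library at a summed 4561 to 12229 CPM in controls and 5068 to 12500 CPM in Cre libraries. A list of fibroblast and endothelial markers, collagens among them, summed to 219 to 475 CPM in controls and 138 to 209 CPM in Cre libraries. The collagens *Col1a1* and *Col1a2* had log2 fold changes of -1.87 and -1.69 without overlap (limma adjusted p = 0.120 and 0.271), and *Col3a1* had -1.41 with overlap. *Pdgfra* and *Pdgfrb* had -2.05 each, with overlapping groups and a log2 CPM of -3.96 in Cre library 2. The endothelial marker *Pecam1* had 0.28 without overlap.

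None of the 10 NF-kB genes differed between control and *Nr3c1* Foxp3-Cre Tregs by more than the spread between libraries. At an adjusted p under 0.05, limma called 0 of the 10 members (lowest adjusted p 0.99998), against 7 of 12153 genes, or 0.0576%, in the whole table. At an unadjusted p under 0.05 it again called 0 of 10, where 3.26% of all genes passed. Groups without overlap were seen for 0 of 10 members and for 7.41% of all genes. Since 10 genes at these rates would give fewer than 1 such member, the counts of 0 are near the background and do not set the members apart. Of the 10 log2 fold changes 5 were above 0 and 5 below, and their median was -0.0080 against -0.0014 over all genes. In each of the 10 genes the difference between the groups was smaller than the larger of the group SDs, a share that was not computed over all genes.

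**Figure D1:**
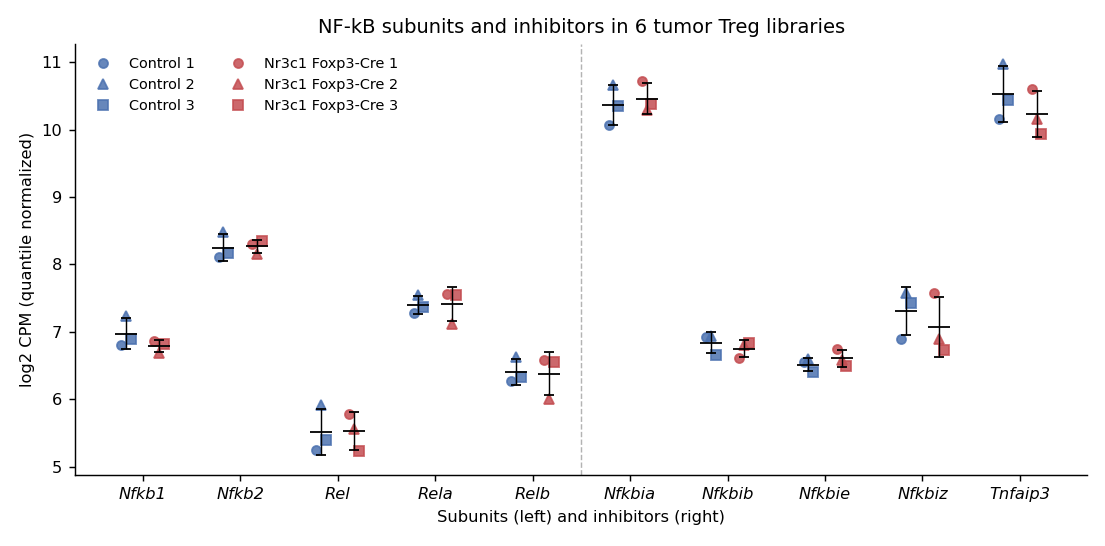
Log2 CPM (y axis) of the 5 subunits and 5 inhibitors (x axis) in 3 control (blue) and 3 *Nr3c1* Foxp3-Cre (red) Treg libraries, with circles, triangles and squares for replicates 1, 2 and 3 and black bars for the mean ± SD (n = 3). For all 10 genes the 2 groups overlap, and values are not scaled for gene length.

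Among the subunits, *Rela* encodes p65, the main activating subunit of the canonical pathway (ENSMUSG00000024927.8, mm10, chromosome 19, 5637483 to 5648130, plus strand). Its log2 CPM was 7.28, 7.55 and 7.37 in controls and 7.57, 7.12 and 7.54 in Cre libraries. The lowest value of all was Cre library 2, and the other Cre libraries lay at the top of the control range. The log2 fold change was 0.01 (SE 0.14, 95% interval -0.30 to 0.32, exact permutation p = 0.9).

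*Rel* encodes c-Rel, the lymphocyte subunit needed for Treg development (ENSMUSG00000020275.9, chromosome 11, 23736847 to 23770970, minus strand). It had 5.25, 5.91 and 5.39 in controls and 5.79, 5.56 and 5.24 in Cre libraries, so that each group covered nearly the whole range of the other. The log2 fold change was 0.01 (SE 0.20, 95% interval -0.44 to 0.46, exact permutation p = 1.0).

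*Nfkb1* encodes p105 and its product p50, the DNA-binding partner of RelA and c-Rel (ENSMUSG00000028163.17, chromosome 3, 135584655 to 135691547, minus strand). It had 6.81, 7.23 and 6.89 in controls and 6.86, 6.68 and 6.83 in Cre libraries. Control library 2 stood above the other 5, which lay close together. This gene had the smallest limma p of the 10 (unadjusted p = 0.181) with a log2 fold change of -0.18 (SE 0.13, 95% interval -0.47 to 0.10).

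The noncanonical subunits overlapped between the groups as well. *Nfkb2*, which encodes p100 and p52 (ENSMUSG00000025225.15, chromosome 19, 46304320 to 46312385, plus strand), had 8.11, 8.47 and 8.16 in controls and 8.30, 8.15 and 8.35 in Cre libraries. *Relb*, which encodes the partner of p52 (ENSMUSG00000002983.17, chromosome 7, 19606217 to 19629438, minus strand), had 6.27, 6.63 and 6.34 in controls and 6.58, 6.01 and 6.55 in Cre libraries. For both genes control library 2 was the highest of the 6 and Cre library 2 the lowest of its group. The log2 fold changes were 0.02 (SE 0.12) for *Nfkb2* and -0.03 (SE 0.17) for *Relb*.

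Among the inhibitors, the range over the 6 libraries was widest for *Tnfaip3* (1.04 on the log2 scale) and *Nfkbiz* (0.85), against a median of 0.58 over the members and 0.57 over all genes. *Nfkbia* encodes IkB-alpha, the inhibitor that is degraded and resynthesized in each cycle of activation and a described target of GR (ENSMUSG00000021025.8, chromosome 12, 55489410 to 55492647, minus strand). Its log2 CPM was 10.07, 10.67 and 10.35 in controls and 10.72, 10.28 and 10.38 in Cre libraries. The highest value of the 6 was in a Cre library and the lowest in a control. The log2 fold change was 0.10 (SE 0.17, exact permutation p = 0.7), and its 95% interval of -0.29 to 0.48 corresponds to folds of 0.819 to 1.40.

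*Tnfaip3* encodes A20, the ubiquitin-editing enzyme that shuts off signaling upstream of IKK (ENSMUSG00000019850.11, chromosome 10, 19000910 to 19015657, minus strand). It had 10.16, 10.98 and 10.44 in controls and 10.61, 10.15 and 9.94 in Cre libraries. It had the largest difference of the 10, a log2 fold change of -0.30 (SE 0.22, 95% interval -0.80 to 0.21, exact permutation p = 0.4), with the Cre library 1 value above 2 of the 3 controls. Without control library 1 its unadjusted limma p was 0.0487, with an adjusted p of 0.999, and the log2 fold change over the sets of 5 libraries ran from -0.48 to -0.07.

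*Nfkbiz* encodes IkB-zeta, a nuclear IkB protein that acts as a coactivator at a subset of NF-kB targets (ENSMUSG00000035356.17, chromosome 16, 55811375 to 55838899, minus strand). It had 6.90, 7.58 and 7.43 in controls and 7.57, 6.90 and 6.73 in Cre libraries. Cre library 1 lay at the highest control, and the other Cre libraries lay at or below the lowest. The log2 fold change was -0.24 (SE 0.23, 95% interval -0.76 to 0.29), with an exact permutation p of 0.4. Without Cre library 1 it was -0.49 and its unadjusted limma p was 0.0393, with an adjusted p of 0.9997.

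The other cytoplasmic inhibitors were the steadiest members. *Nfkbib*, which encodes IkB-beta (ENSMUSG00000030595.15, chromosome 7, 28758251 to 28767512, minus strand), had 6.93, 6.94 and 6.66 in controls and 6.61, 6.81 and 6.84 in Cre libraries. *Nfkbie*, which encodes IkB-epsilon (ENSMUSG00000023947.8, chromosome 17, 45555703 to 45563169, plus strand), had 6.55, 6.60 and 6.40 in controls and 6.75, 6.58 and 6.50 in Cre libraries. Their log2 fold changes were -0.09 (SE 0.12) and 0.09 (SE 0.11), with groups that overlapped.

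**Figure D2:**
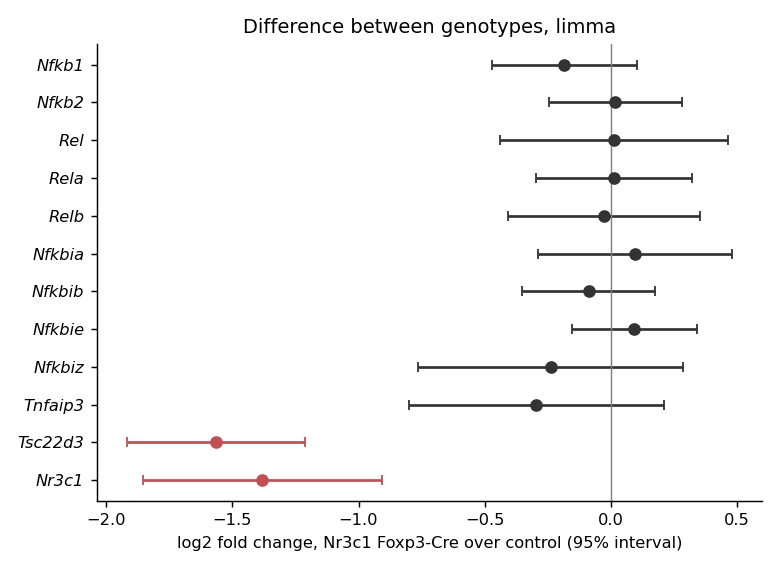
Log2 fold change of *Nr3c1* Foxp3-Cre over control Tregs (x axis) with 95% intervals from limma (n = 3 a group) for the 10 NF-kB genes (black) and for *Tsc22d3* and *Nr3c1* (red). All 10 black intervals cross 0, and both red intervals lie below it.

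The intervals set what these libraries can show. All 10 of the 95% intervals covered 0, and together they ran from a fold of 0.575, the lower bound of *Tnfaip3*, to 1.40, the upper bound of *Nfkbia*. The interval of each gene limits that gene only: for *Nfkbie* it covered folds of 0.898 to 1.27 and for *Nfkb2* 0.843 to 1.22. The SEs of the members, 0.11 to 0.23 with a median of 0.15, were near the median of 0.18 over all genes.

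The balance of inhibitors to subunits was compared within each library, which removes what moves all members together. These differences are on log2 CPM not scaled for length, so they compare the groups and not the levels of the genes. The 5 genes listed as inhibitors include *Nfkbiz*, whose product also acts as a coactivator, so their mean is not a measure of inhibition. The mean log2 CPM of the 5 inhibitors exceeded that of the 5 subunits by 1.38, 1.39 and 1.43 in controls and by 1.43, 1.44 and 1.18 in Cre libraries. Only Cre library 3 lay outside the control range by more than 0.01, and the difference between the group means was -0.05. *Nfkbia* exceeded *Rela*, the subunit that IkB-alpha mainly holds, by 2.79, 3.12 and 2.99 in controls and by 3.15, 3.16 and 2.84 in Cre libraries, and these groups overlapped too.

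All 45 pairs of members were then compared in this way, as the difference of their log2 CPM within each library. The groups did not overlap for 4 pairs, or 8.89%, against 8.73% of all pairs of genes in the table, so the share is near the background. One of the 4 was *Nfkbia* and *Tnfaip3*. *Nfkbia* minus *Tnfaip3* was -0.09, -0.31 and -0.09 in controls and 0.11, 0.13 and 0.44 in Cre libraries, higher in every Cre library than in every control. The remaining pairs were *Nfkb1* with *Nfkb2*, *Nfkb1* with *Nfkbia*, and *Rel* with *Tnfaip3*. An exact permutation test of 3 against 3 libraries cannot go below p = 0.1, and the pairs share genes.

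Levels of different genes were compared per length, as CPM per kilobase of the union of exons, averaged on the log2 scale over the 6 libraries. *Nfkbia* led with 846 CPM per kilobase, above 99.8% of all genes, followed by *Tnfaip3* with 184 (97.8%) and *Nfkb2* with 66.8 (92.4%). *Rela* (55.2) and *Nfkbib* (51.3) came next and did not differ beyond the SD of their difference over libraries, and the same held for *Nfkbie* (31.1) and *Nfkbiz* (29.0). *Relb* (21.7), *Nfkb1* (9.79) and *Rel* (6.17) were the lowest per kilobase, each in the order given in 5 or more of 6 libraries against the gene above it. Counted on the longest coding transcript instead, a choice also made after the data were seen, *Relb* and *Nfkbiz* exchanged places. By either length *Nfkbia* and *Tnfaip3* stood above every subunit.

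The members varied from library to library with a shared pattern. Their median range over the 6 libraries, 0.58, was near the 0.57 of all genes. Within the controls, library 2 was the highest for 10 of 10 members, where it was the highest for 39.1% of all genes, and library 1 the lowest for 8 of 10 (39.1% of all genes). Within the Cre group, library 1 was the highest for 8 of 10 (29.8% of all genes). Over all 6 libraries the top value was in control library 2 for 7 members and in Cre library 1 for the other 3. The mean over the 10 members was 7.43, 7.86 and 7.54 log2 CPM in controls and 7.74, 7.43 and 7.49 in Cre libraries.

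**Figure D3:**
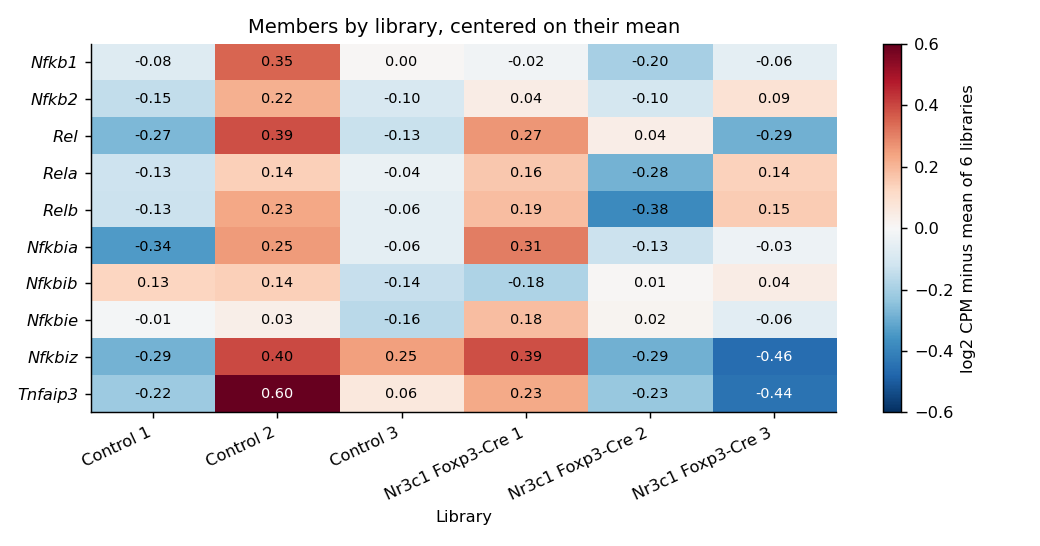
Log2 CPM minus the mean of the 6 libraries for each NF-kB gene (rows) in each library (columns), printed in the cells and colored from blue (below the mean) to red (above). Control library 2 is above the mean for all 10 genes, and Cre library 1 for 8.

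Over the 6 libraries 38 of the 45 member pairs had a Pearson r above 0, with a median of 0.57. The highest was *Rela* with *Relb* (r = 0.992), followed by *Nfkbiz* with *Tnfaip3* (r = 0.926). All 7 negative pairs included *Nfkbib*, whose IkB-beta product is not part of the rapid feedback loop. These are descriptions over 6 points that share their libraries and the quantile normalization. The correlations of all pairs of genes were not computed, so the count of 38 of 45 and the median have no background beside them. The genes outside the list most like *Nfkbia* were *Snx25* (r = 0.999), *Dennd4a* (0.996) and *Irak1* (0.996), a kinase of interleukin-1 and Toll-like receptor signaling, and 328 of 12143 genes reached 0.9. The most like *Tnfaip3* were *Dcaf12* (r = 0.994), *Selenoi* (0.991) and *Kremen1* (0.991), with 84 genes at 0.9 or more.

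Markers of cell types moved over the same libraries. The summed T cell and Treg markers were 3535, 4872 and 4480 CPM in controls and 4383, 3656 and 4103 CPM in Cre libraries, so they were highest in the library of each group where the members were highest. The summed B16 melanoma markers were 12229, 4561 and 9020 CPM in controls and 8467, 12500 and 5068 CPM in Cre libraries. They were lowest in control library 2, but in the Cre group lowest in library 3. The 11 of 14 myeloid markers that were measured summed to 1422 to 1652 CPM in controls and 1271 to 1602 CPM in Cre libraries, and 10 of the 11 had a log2 fold change below 0, with a median of -0.39, 0 of them at an unadjusted p under 0.05 by limma. Of the B cell markers 1 of 5 was measured, *Cd79b*, at a log2 CPM of 3.82 to 4.55. Of the CD8 and NK markers 2 of 6 were measured, *Cd8b1* at 2.93 to 3.96 and *Klrk1* at 0.68 to 1.71. With the mean of the melanoma markers added to the fit, an alternative chosen after the data were seen, limma called 0 of 10 members and their median log2 fold change was -0.02. The part of these cell types in the pattern across libraries was not tested.

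**Figure D4:**
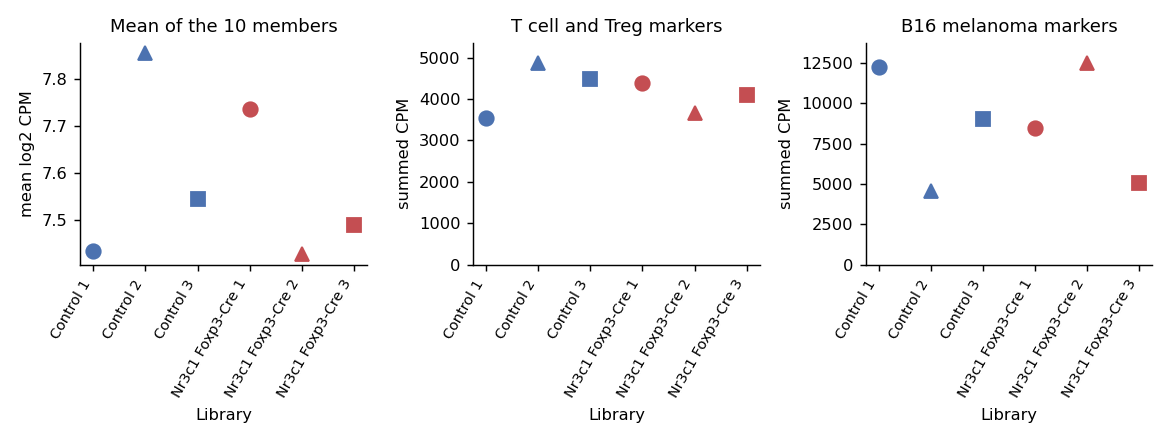
Mean log2 CPM of the 10 NF-kB genes (left) and summed CPM of T cell and Treg markers (middle) and of B16 melanoma markers (right) in each library (x axis), 3 control (blue) and 3 *Nr3c1* Foxp3-Cre (red). The left and middle panels peak in control library 2 and, among Cre libraries, in library 1, and the left axis does not start at 0.

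Other genes of the pathway were taken from lists of kinases, adaptors, receptors, target genes and brakes, 107 in all, of which 102 were measured. Limma called 0 of the 102 at an adjusted p under 0.05. With no adjustment 2 genes had a p under 0.05 and were higher in Cre libraries, and 4 were lower, 5.88% in all against 3.26% of all genes, and the groups did not overlap for 4 higher and 4 lower genes, 7.84% against 7.41%. The median log2 fold change of the 102 was 0.04.

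Upstream, *Ikbke*, which encodes the IKK-related kinase IKK-epsilon, had 6.68, 6.99 and 6.84 log2 CPM in controls and 7.18, 7.28 and 7.34 in Cre libraries. Every Cre value was above every control value, with a log2 fold change of 0.43 (SE 0.11, unadjusted p = 0.003, limma adjusted p = 0.827). The list of *Ikbke* holds 13 genes of IKK and other kinases, not all of which encode kinases. Of these, *Map3k7*, which encodes TAK1, also had groups without overlap (log2 fold change 0.19). *Ikbkg*, which encodes the NEMO scaffold of IKK, had 0.18 with overlap. Of the genes that link the T cell receptor to NF-kB, *Prkcq* had 0.19 and *Malt1* had 0.22, both with overlapping groups. The adaptors of TNF receptors had 0.25 for *Traf5*, 0.14 for *Traf2* and 0.17 for *Traf3*. In that list 8 of the 9 genes were above 0, where 6017 of all 12153 genes were. Groups overlapped for all 9, and 0 of them had an unadjusted limma p under 0.05. The 9 genes come from the same 6 libraries, so their directions are not independent. None of these differences passed the test.

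Of the enzymes that build linear ubiquitin chains, *Rnf31* had a log2 fold change of 0.14, *Sharpin* 0.07 and *Rbck1* -0.04. Among 16 further genes listed as brakes, not all of which act on ubiquitin, 9 were above 0 and 7 below with a median of 0.01. *Cyld*, a deubiquitinase that restrains the pathway, had 0.11. *Tnip1*, which encodes a partner of A20, and *Peli1* had 0.09 each. The nuclear or atypical IkB genes *Nfkbid*, *Nfkbil1* and *Bcl3* had 0.13, -0.11 and 0.06, and *Ankrd42* has no row in the table. The coactivators *Ep300*, *Crebbp* and *Rps3* had 0.36, -0.21 and -0.07. Groups overlapped for all of the genes named here that have a value.

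Of 16 genes listed under receptors that signal to NF-kB, 15 were measured, with 7 above 0 and 8 below. The list includes *Myd88*, *Irak1* and *Irak4*, which do not encode receptors. *Tnfrsf13b*, which encodes TACI, had 5.51, 5.93 and 6.01 in controls and 6.01, 6.04 and 6.39 in Cre libraries, a log2 fold change of 0.33 without overlap by a narrow margin. *Il1rl1*, which encodes the interleukin-33 receptor ST2 of tissue Tregs, had 0.35, and *Cd27* had -0.17, both with overlap.

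Of 37 known target genes 34 were measured, 20 above 0 and 14 below, with a median log2 fold change of 0.06. *Tnf*, an inflammatory cytokine and activator of the pathway, had 3.68, 3.69 and 3.67 log2 CPM in controls and 4.31, 4.09 and 4.83 in Cre libraries, all above the controls (log2 fold change 0.72, SE 0.22, unadjusted p = 0.008). *Bcl2a1d*, an antiapoptotic target, had 7.001, 7.304 and 7.006 in controls and 6.625, 6.371 and 6.864 in Cre libraries (log2 fold change -0.48, unadjusted p = 0.008). *Ccr7*, the receptor for lymph node homing, had 7.05, 7.50 and 7.07 in controls and 6.95, 6.63 and 6.20 in Cre libraries (log2 fold change -0.61, unadjusted p = 0.011). At an unadjusted limma p under 0.05, 1 of the 34 was higher and 4 were lower in Cre libraries, where 3.26% of all genes passed. Groups did not overlap for 1 higher and 4 lower genes, against 7.41% of all genes. Both shares of the targets were above those of all genes, but the list was chosen with earlier results known and was not tested as a set. For each of the 34 the limma adjusted p was above 0.05. The other target genes without overlap were *Ptgs2* and *Cd69*, at -1.53 (SE 0.54) and -0.30 (SE 0.12), and both were named after their values were seen. *Ptgs2* was at a low level, with log2 CPM of 1.34, 2.26 and 0.35 in controls and 0.19, -0.19 and -0.64 in Cre libraries. The median over all genes and libraries was 4.93.

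**Figure D5:**
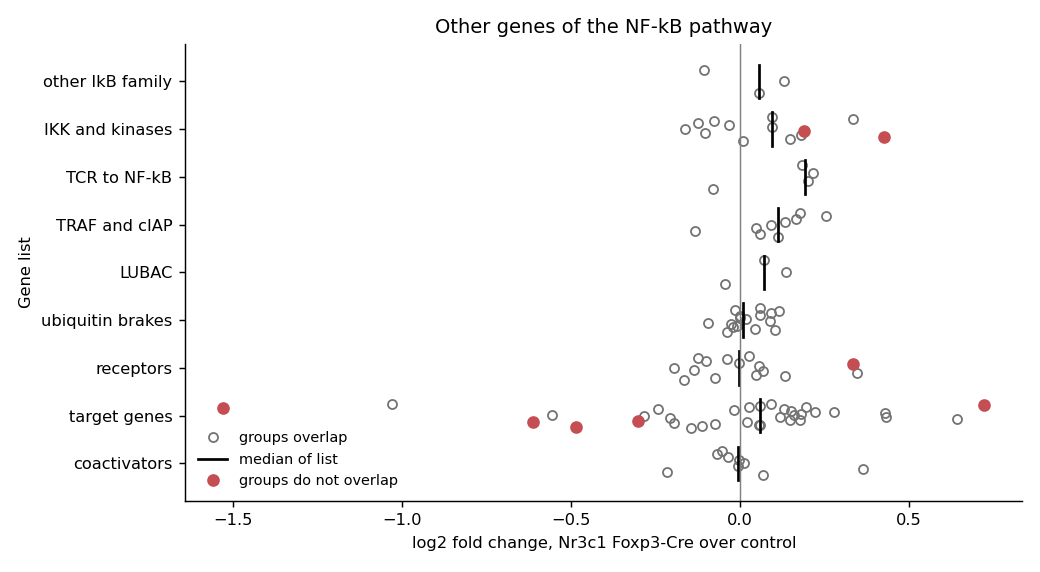
Log2 fold change of *Nr3c1* Foxp3-Cre over control Tregs (x axis) for the measured genes of 9 lists of the NF-kB pathway (y axis), with filled red points where the 3 libraries of one group do not overlap the 3 of the other and black bars for the median of each list. The median of each list lies within 0.2 of 0, and the filled points fall on both sides of 0.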

How the data were processed

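RNA-Seq libraries of 3 control and 3 *Nr3c1* Foxp3-Cre tumor Treg samples were grouped by the genotype in the labels. Reads were trimmed by the authors (Cutadapt) and aligned to mm10 (STAR), and they estimated counts per gene with RSEM and the GENCODE M21 annotation, filtered genes of low count and applied quantile normalization. The deposited values are log2 CPM, and each library sums to 999633 or 999634 CPM on the linear scale, so the depth of sequencing is unknown and counting error could not be given. Quantile normalization makes the distributions of all libraries alike, and values are relative to it. Precision is limited by the number of libraries.

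Genotype was tested for all 12153 genes by limma 3.58.1 (R 4.3.3), using lmFit, then eBayes with trend, with no covariate and with Benjamini-Hochberg adjustment over all genes at 0.05. SEs and 95% intervals are those of this fit, and it was tested on simulated data. For single genes an exact permutation test, two-sided, of 3 against 3 libraries was added. Lengths and positions came from GENCODE M21 on mm10 (12130 genes, 99.81%, matched by identifier). Python 3.11.15 with pandas 2.3.3 and numpy 2.4.6 was used for the descriptions.

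All members were named, and for each other list up to 3 measured genes with the smallest unadjusted p and any called, except that some items are not reported here. The genes most like *Nfkbia* and *Tnfaip3* were taken by Pearson r over 6 libraries. The members, lists and tests were chosen with earlier results of these data known, and the lists of pathway genes share some genes. Alternatives were sample quality weights, vooma weights, robust eBayes, eBayes with no trend, cyclic loess, median centering, log2(CPM + 1), a minimum mean log2 CPM of 1, a replicate block and fits with 1 library left out. A melanoma marker covariate and the longest coding transcript as the length were added after the data were seen.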

Additional observations from a re-analysis of the deposited data

How the results depend on the processing

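Of the 10 members 0 were called under each of the 16 alternatives, and the lowest adjusted p of a member in any of them was 0.501. Directions near 0 were not stable: with 1 library left out the median log2 fold change of the members ran from -0.092 to 0.084, and with sample quality weights it was 0.063. The balance of inhibitors to subunits ran from -0.096 without Cre library 2 to 0.033 without Cre library 3, against SDs of 0.026 in controls and 0.15 in Cre libraries. The number of genes called over the whole table was 7 in limma with a trend, 0 without a trend (469 at an unadjusted p under 0.05), 19 with sample quality weights, 18 with the melanoma marker covariate, which was chosen after seeing the data, and 0 to 8 when 1 library was left out. Sample quality weights gave control library 3 a weight of 7.47 and the others 0.52 to 0.86. With the trend, 396 genes had an unadjusted p under 0.05. The cause of these shifts was not tested.

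Members whose groups did not overlap numbered 0 to 2 when 1 library was left out, with 1 without control 1, 1 without control 3 and 2 without Cre library 1. The share over all genes was not computed for these sets of 5 libraries, and the 7.41% of all genes is for 3 against 3. With fewer libraries groups separate more easily by chance, so these counts do not set the members apart. Of 160 values of single members 141 kept their direction and 19 turned. *Relb* was 0.064 and *Nfkbib* 0.059 with sample quality weights, and *Rela* was -0.00034 with the melanoma marker covariate. With 1 library left out, *Nfkb2* ran from -0.051 to 0.13, *Rel* from -0.12 to 0.21, *Rela* from -0.067 to 0.16, *Relb* from -0.13 to 0.16 and *Nfkbia* from -0.050 to 0.25. The other 5 members kept their direction in those fits.

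In the fit with a replicate block, 0 genes passed an adjusted p under 0.05 in limma (275 at an unadjusted p) and 0 members passed either. Deviations of same-numbered libraries from their group means correlated at -0.12, -0.33 and -0.02, and those of differently numbered libraries at -0.27 to 0.36. Such correlations cannot show whether same-numbered libraries shared an experiment. The labels link them by number only, and they were not treated as pairs. Depth is unknown for these values, and with 3 libraries a group no exact permutation p can go below 0.1.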
